A study of Mus musculus with 8 samples.

Results

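The nuclear genes that encode respiratory complexes II to V and cytochrome c were followed in mouse 3T3-L1 adipocytes. They were the nuclear protein-coding genes whose symbol begins with Uqcr, Cox4 to Cox8 or Atp5, together with Sdha, Sdhb, Sdhc, Sdhd, Cyc1 and Cycs. This name rule selected 49 of the 43629 genes of the count table. Complex II contributed 4 genes, complex III 9, cytochrome c 1, complex IV 18 and complex V 17. The low-count filter kept 45 of the 49 for testing. The other 4, Cox4i2, Cox6b2, Cox7b2 and Cox8c, are complex IV isoforms with at most 7 counts in any library.

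3T3-L1 is a mouse fibroblast line that becomes fat cells after hormonal induction, here with insulin, dexamethasone, isobutylmethylxanthine and rosiglitazone. Treatment began on day 8 of differentiation and lasted 24 h. The series set out to ask how blocking p110alpha, the catalytic subunit of phosphoinositide 3-kinase that acts downstream of the insulin receptor, changes the response to a saturated fatty acid. Untreated cells received nothing, A66 cells received the p110alpha inhibitor A66 at 2 μM according to the labels, palmitate cells received 0.5 mM palmitate bound to bovine serum albumin at a molar ratio of 3:1, and palmitate plus A66 cells received both. The study's methods give another A66 dose and a DMSO vehicle, the labels name neither vehicle nor albumin in the groups without palmitate, and all groups come from one cell line. Each group had 2 libraries, called biological repeats in the methods for the groups without palmitate, and p-values measure only the spread between them. Every direction rests on the sample labels and on column names that match them, since the drug acts on an enzyme and its target's transcript does not check them. Had libraries with and without A66 been exchanged, both A66 effects and the interaction would change sign, the libraries called palmitate plus A66 would be those of palmitate alone, and the palmitate comparison and that of the combination with A66 would trade places. The statements on palmitate and on the combination therefore depend on the labels as much as those on A66, and an exchange was not tested.

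Complex II (succinate dehydrogenase) feeds electrons from succinate into the ubiquinone pool, complex III passes them to cytochrome c, complex IV transfers them to oxygen, and complex V (ATP synthase) uses the resulting proton gradient to make ATP. Complex II is encoded wholly in the nucleus, while complexes III, IV and V also hold a few subunits encoded in mitochondrial DNA. White adipocytes use this chain to burn fatty acids and to power lipid synthesis, and brown adipocytes carry more of it together with their own isoforms of a few complex IV subunits.

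Libraries held between 42247091 and 57529803 counts. All 10 adipocyte markers were above 1 CPM (counts scaled to a common library size with TMM factors) in all 8 libraries. The brown fat marker Ucp1 and the preadipocyte marker Dlk1 were at 0 throughout. Of 7 brown fat markers 2 were above 1 CPM in all 8 libraries, Ppargc1a (55.4 to 63.8 CPM) and Cox8b (11.8 to 19.2 CPM). For preadipocyte or fibroblast markers that count was 6 of 7, with Col1a2 between 2973 and 3384 CPM. The chi-square between replicates averaged 6.15 to 8.99 over genes, where sampling alone would give 1. The first untreated library stood apart in its short transcripts. Genes with transcripts under 1000 nucleotides lay at a median of -0.045 on the log2 scale there, and between 0.0021 and 0.039 in the other 7 libraries, relative to the mean of all libraries. The 45 tested genes have a median transcript length of 755 nucleotides against 2669.5 for all genes tested, so the medians against untreated cells are also given without that library. Counts of near-identical annotated copies reached at most 2.71% of those of any gene called below (Gm10039 for Atp5g1), and exons of 11 genes overlap a gene on the opposite strand, of which Atp5o is called and is overlapped by genes with 26 counts in all.

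Transcript levels of the subunits spanned a wide range when expressed as CPM per kilobase of transcript. Cox4i1, the ubiquitous form of complex IV subunit 4, had the highest level in complex IV, at 696 CPM per kilobase over all libraries. Atp5b, the catalytic beta subunit of ATP synthase, was the highest of all 45 at 918 CPM per kilobase. Within complex III the hinge protein gene Uqcrh led with 271 CPM per kilobase. In complex II the flavoprotein gene Sdha, which carries the succinate-oxidising site, reached 189 CPM per kilobase, while the membrane anchor gene Sdhc had 35.9. Cycs, which encodes the mobile carrier cytochrome c, lay at 74.9 CPM per kilobase. The lowest tested genes were Cox7a1 at 3.46 CPM per kilobase, Atp5s, which encodes coupling factor B, at 8.70, and Cox6a2 at 9.54, and both Cox7a1 and Cox6a2 are forms best known from striated muscle. The median by complex ran from 135 CPM per kilobase in complex III over 144 in complex II and 151 in complex IV to 204 in complex V. These levels depend on the annotated length, which is 3123 nucleotides for Cycs, 3171 for Sdhc and 2675.5 for Atp5g1, far above most other genes of the group.

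**Figure D1:**
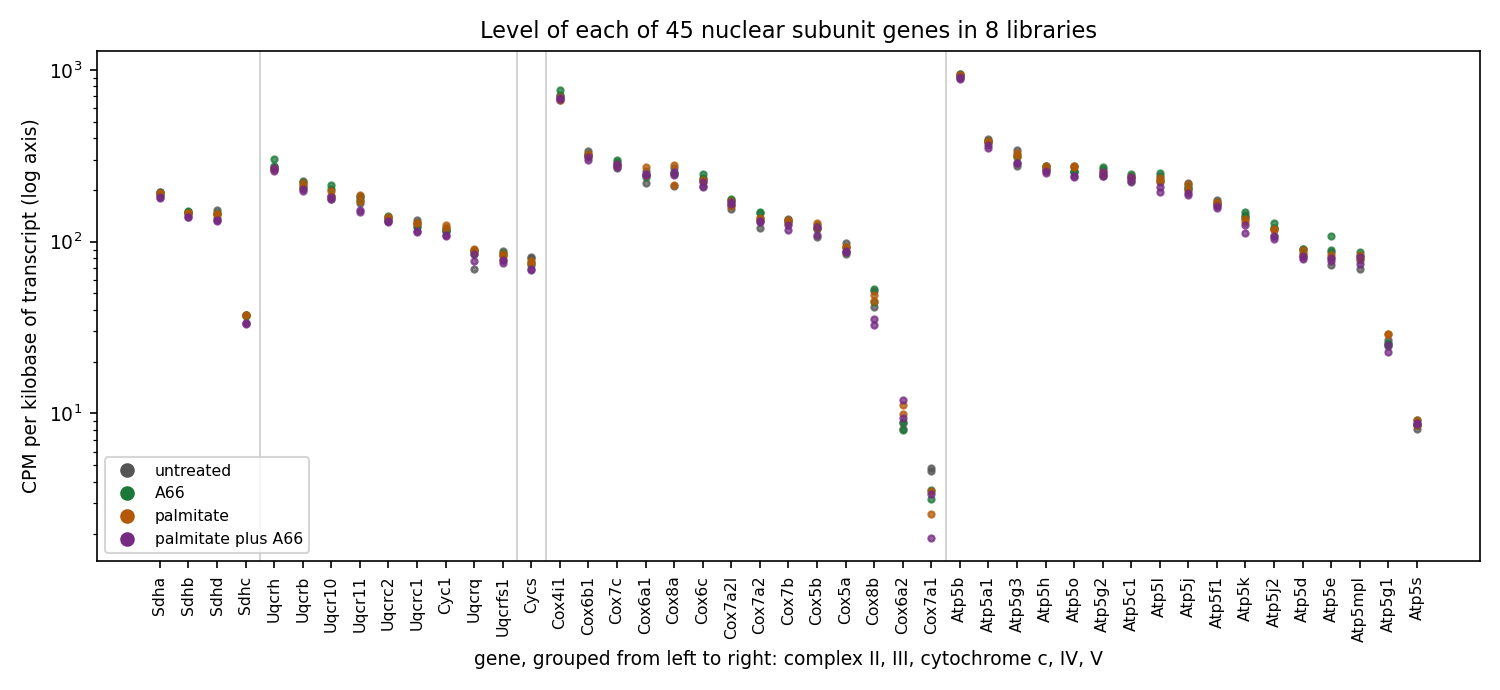
Level of each of the 45 tested genes as CPM per kilobase of transcript (log axis), with 1 point for each of the 8 libraries, coloured by group and ordered by level within each complex. Levels range from 3.46 for Cox7a1 to 918 for Atp5b, and differences between genes far exceed those between groups.

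Across the treatments, the subunit genes were lowest where both agents were combined. The 49 genes summed to 8811 and 9359 CPM in the untreated libraries. The sums were 9379 and 9113 CPM in A66 libraries, 9179.8 and 9169 CPM in palmitate libraries, and 8599 and 8691 CPM in those with both agents. Both libraries of the combination were therefore below the other 6, and the first untreated library was the nearest to them. Relative to the untreated mean, the median deviation of the 45 tested genes on the log2 scale was -0.078 and -0.075 in the combination libraries. It was 0.046 and 0.022 in A66 libraries and 0.022 and 0.024 in palmitate libraries, while the untreated libraries lay at -0.040 and 0.040. In bulk RNA a smaller number of cells carrying a transcript and less of it per cell cannot be told apart.

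**Figure D2:**
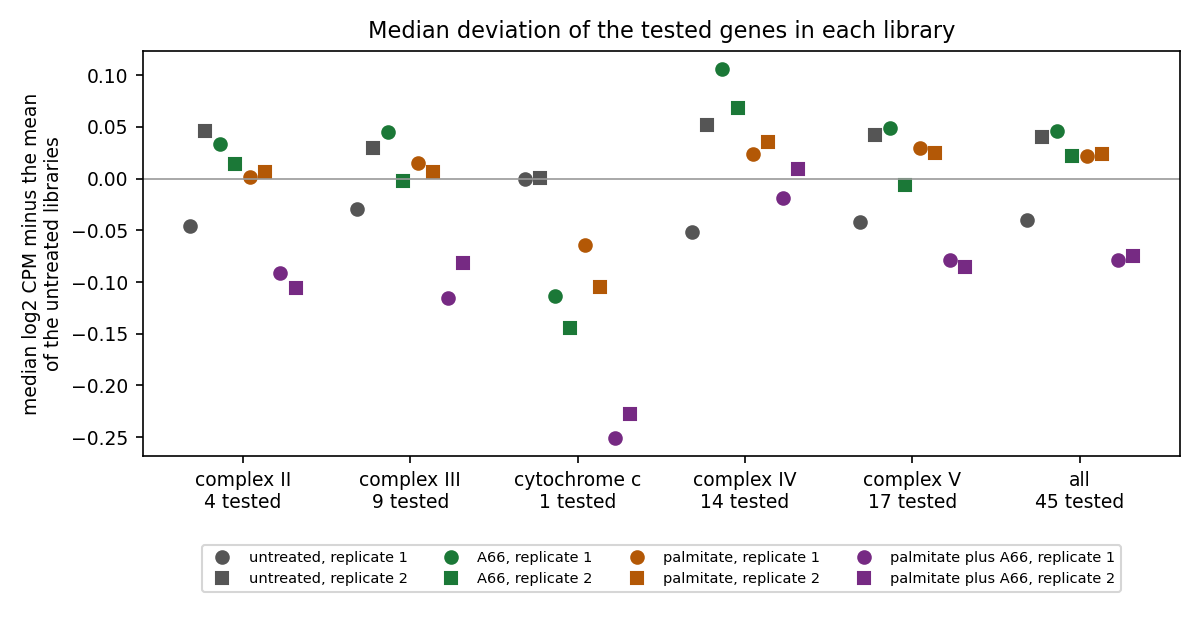
Median log2 CPM of the tested genes of each complex, minus the mean of the 2 untreated libraries, in each of the 8 libraries (circle, replicate 1, and square, replicate 2). Both palmitate plus A66 libraries lie below all others for complexes II, III and V, for cytochrome c and for all 45 genes, and for complex IV they lie between the untreated libraries.

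A66 alone raised 3 of the 45 genes and lowered none at an adjusted p under 0.05, while 1.84% of the 14158 genes tested passed that threshold in either direction and 1.07% in the upward direction. In simulated counts this fit of 4 libraries made false calls more often than its threshold allows, which bears on these 3. They were Uqcr10, Cox7a2 and Atp5e, small accessory or stalk subunits with transcripts under 700 nucleotides. By sign alone, 30 were higher and 15 lower, beside 49.6% of all genes higher, and the median log2 fold change was 0.036 against -0.0011 for all genes tested. The A66 and untreated libraries did not overlap for 14 genes that were higher and 4 that were lower, beside 20.3% and 22.3% of all genes. Removal of the trend of fold change on transcript length left 1 of the 3 calls with median transcript lengths, and 0 with the longest or the principal transcripts, with 28, 20 and 21 of the 45 genes then higher. Without the first untreated library the median turned to -0.025 with 2 calls, and without the second it was 0.10 with 15 calls. Calls over all genes also went up in these fits, from 261 of 14158 to 401 of 14565 and 635 of 14505. Leaving out the first A66 library left 0 calls and leaving out the second left 1, beside 102 and 98 calls over all genes. Uqcr10 lost its call in 2 of these 4 fits (without either A66 library), Atp5e in 2 (without the first untreated or the first A66 library) and Cox7a2 in 3, all but that without the second untreated library.

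Palmitate alone changed 0 of the 45 genes at an adjusted p under 0.05 by edgeR's quasi-likelihood test, beside 1.17% of 14587 genes tested. At an unadjusted p under 0.05, 5 were higher and 2 were lower, beside 6.42% and 5.6% of all genes, and DESeq2 also called 0. The median log2 fold change of the 45 was 0.020, and 29 were higher, beside 50.2% of all genes. The median turned to -0.028 without the first untreated library and became 0.081 without the second.

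When A66 was added to palmitate, 9 of the 45 genes fell and 0 rose, beside 2.81% of all genes called and 1.84% called lower. The 9 came from every complex, with Sdhc in complex II, Uqcr11, Cyc1 and Uqcrc1 in complex III, Cycs itself, Cox8b in complex IV, and Atp5g1, Atp5o and Atp5l in complex V. Of the 45 genes 42 were lower by sign, beside 50.3% of all genes, and the median log2 fold change was -0.087 against -0.00079 for all genes. Both combination libraries lay below both palmitate libraries for 32 genes and above them for 0, where 22.4% of all genes were separated downward. The count of calls was 9 under each of the 3 length corrections and with DESeq2. Without the first or second palmitate library calls were lost, and the median was -0.094 or -0.086. Without the first or second combination library calls were also lost, and the median was -0.089 or -0.085. Sdhc, Uqcrc1, Atp5l and Cycs lost the call in all 4 of these fits and Cyc1 in 3, all but that without the first palmitate library. Cox8b lost it without the second palmitate or the first combination library, Uqcr11 without the second palmitate or the second combination library, Atp5o without the first combination library and Atp5g1 without the second. Correction for GC content also ended the calls of Sdhc and Uqcrc1 and added Cox7b.

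The combination also lay below A66 alone. Here 7 of the 45 genes fell and 0 rose, beside 2.73% of all genes called and 1.27% called lower, and 43 were lower by sign, beside 49.8% of all genes, with a median log2 fold change of -0.11. The 7 were Uqcr10 and Uqcr11 in complex III, Cox8b in complex IV, and Atp5l, Atp5k, Atp5j2 and Atp5e in complex V. For 35 genes the combination libraries were both below the A66 libraries, and for 2 above, beside 23.4% and 23.2% of all genes. Calls were lost without the first A66 library or either combination library, and kept without the second A66 library. The median was -0.095 without the first A66 library and -0.13 without the second. Without the first or second combination library it was -0.099 or -0.12. This comparison and the preceding one share the 2 combination libraries, so they do not repeat each other independently.

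Other features of the combination libraries moved with these results. Transcripts of the mitochondrial genome took 11.4% and 11.8% of their counts, against 10.5% to 10.98% in the other 6 libraries. The summed adipocyte markers were 8081 and 8820 CPM there, which overlaps the 8282 and 9076 CPM of palmitate cells and lies below the 9875 and 9342 CPM of A66 cells. Of the 10 adipocyte markers 1 was called lower against palmitate, the glucose transporter gene Slc2a4 (-0.23, adjusted p = 0.00762), beside 1.84% of all genes. Against A66 6 were called lower, such as Adipoq (-0.24, adjusted p = 0.00327), beside 1.27%. With palmitate alone, Pnpla2 of the same list was called lower against untreated cells (-0.25, edgeR adjusted p = 0.0164). The summed preadipocyte or fibroblast markers were 3996 and 4067 CPM in the combination, below the 4348 and 4516 CPM with palmitate, and of these the collagen gene Col1a1 was called lower (-0.33, adjusted p = 0.000175), while Ly6a had 0.37 (adjusted p = 0.0511). The same sum was 3919 and 3994 CPM in A66 cells, and 4089 and 4030 CPM in untreated cells, which the combination overlaps. Col1a1 was called higher with palmitate alone against untreated cells (0.25, edgeR adjusted p = 0.00331). The sum of 4 macrophage markers was 5.65 and 5.94 CPM against 2.75 to 4.36 CPM elsewhere, nearly all of it Cd68, while Adgre1 was at 0 in all 8 libraries. Cd68 was called higher in the combination against A66 (0.91, adjusted p = 0.00140) and had 0.47 against palmitate (adjusted p = 0.119). The part of these differences in the lower subunit levels was not tested.

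**Figure D3:**
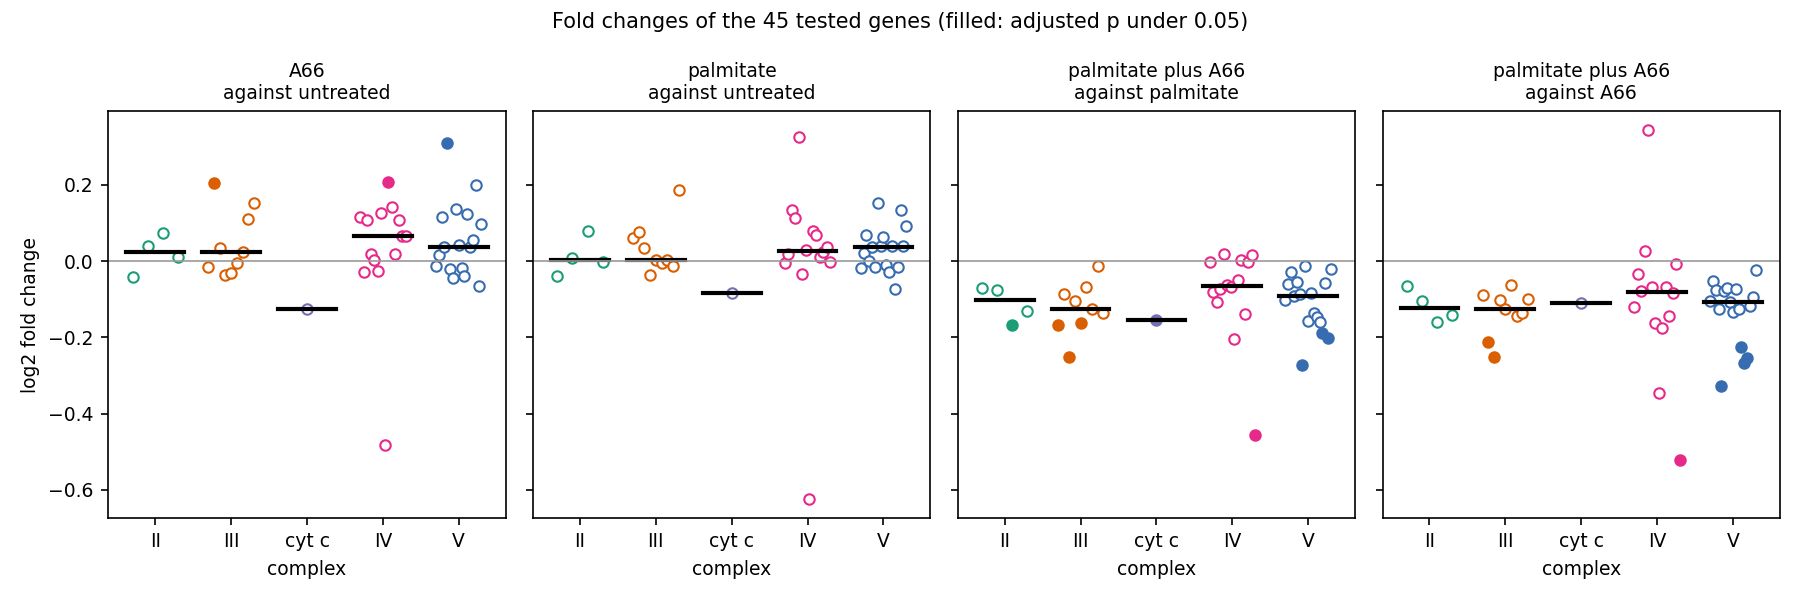
Log2 fold change of each of the 45 tested genes in 4 comparisons, by complex (cyt c, cytochrome c). Filled points have an adjusted p under 0.05 and black lines mark the median of each complex, which lies above 0 for complexes II to V with A66 alone and below 0 for all 5 groups of genes in both comparisons that involve the combination.

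The promoters of 5 genes are shown. Atp5l, Uqcr11 and Cox8b are those that fell in the combination against both palmitate and A66, while Uqcrc1 and Cycs, which fell against palmitate, were added after matches had been seen. RefSeq start sites (GRCm38.p6) gave a promoter for 37 of the 49 genes, each 300 bases long with 250 before the start and 50 after it. Capitals mark letters that match GCATGCG (a core of the nuclear respiratory factor 1 motif), CCGGAAG (ETS family, to which the respiratory factor GABP belongs), AAGGTCA (nuclear receptors of the ERR type) or TATAAA on either strand, and overlapping matches of one motif count once. The windows are chr9:44920693-44920992 for Atp5l, chr10:80406772-80407071 for Uqcr11, chr7:140900397-140900696 for Cox8b and chr6:50566520-50566819 for Cycs on the minus strand, and chr9:108936398-108936697 for Uqcrc1 on the plus strand, all written 5′ to 3′ along the gene.
Atp5l: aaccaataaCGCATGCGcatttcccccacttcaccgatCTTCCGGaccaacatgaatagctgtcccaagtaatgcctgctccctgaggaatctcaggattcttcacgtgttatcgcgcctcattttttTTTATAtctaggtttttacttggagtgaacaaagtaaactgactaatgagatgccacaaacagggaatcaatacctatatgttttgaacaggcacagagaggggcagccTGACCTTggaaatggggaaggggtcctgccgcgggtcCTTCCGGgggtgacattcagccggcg
Uqcr11: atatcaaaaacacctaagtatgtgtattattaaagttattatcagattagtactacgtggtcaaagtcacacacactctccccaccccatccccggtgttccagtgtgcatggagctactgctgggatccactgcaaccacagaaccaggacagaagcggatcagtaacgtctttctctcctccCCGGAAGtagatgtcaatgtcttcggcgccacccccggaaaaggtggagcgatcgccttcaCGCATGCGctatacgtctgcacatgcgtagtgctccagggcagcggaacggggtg
Cox8b: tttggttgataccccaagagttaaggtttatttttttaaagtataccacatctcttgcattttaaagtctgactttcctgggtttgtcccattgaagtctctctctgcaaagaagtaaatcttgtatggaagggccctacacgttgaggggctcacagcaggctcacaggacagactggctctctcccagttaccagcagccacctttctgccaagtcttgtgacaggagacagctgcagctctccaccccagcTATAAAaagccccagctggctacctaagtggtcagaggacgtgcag
Uqcrc1: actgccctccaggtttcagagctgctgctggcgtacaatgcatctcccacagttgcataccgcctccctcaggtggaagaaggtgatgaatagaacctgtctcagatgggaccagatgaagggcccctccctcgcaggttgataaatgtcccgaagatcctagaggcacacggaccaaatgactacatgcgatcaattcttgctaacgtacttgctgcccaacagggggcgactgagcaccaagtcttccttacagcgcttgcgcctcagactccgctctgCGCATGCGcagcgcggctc
Cycs: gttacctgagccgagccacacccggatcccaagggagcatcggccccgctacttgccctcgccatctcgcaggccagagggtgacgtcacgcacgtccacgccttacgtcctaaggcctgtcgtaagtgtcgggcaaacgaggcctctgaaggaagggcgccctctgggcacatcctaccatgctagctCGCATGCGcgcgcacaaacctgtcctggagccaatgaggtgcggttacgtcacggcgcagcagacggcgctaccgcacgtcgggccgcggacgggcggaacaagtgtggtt
Whether these promoters hold a nuclear respiratory factor 1 match depended on the letters searched. The first search was for GCGC and TGCGC with 1 base of any kind between them. It found 2 matches in Uqcrc1 and 0 in Atp5l, Uqcr11, Cox8b and Cycs. The core GCATGCG was put in its place after these windows had been read and seen to contain it, and it has 1 match each in Atp5l, Uqcr11, Uqcrc1 and Cycs and 0 in Cox8b, so its matches in the windows shown are not independent of the choice of letters. Over the 37 genes, the first form occurred in at least 1 promoter of 10 (27.0%), against 5.19% of 27025 genes with promoters of this length. The core occurred in 9 (24.3%) against 4.01%. Those 9 include Atp5l, Uqcr11, Uqcrc1 and Cycs, so this share is not independent of the choice of letters either.

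Atp5l had 2 matches to the ETS letters and Uqcr11 had 1, Atp5l also had 1 each to the ERR letters and TATAAA, and Cox8b held only a TATAAA match. The ETS letters occurred in 12 of the 37 genes (32.4%) against 9.93% of all, and the ERR letters in 5 (13.5%) against 5.38%. TATAAA occurred in 3 (8.1%) against 15.7%, CCAAT in 21 (56.8%) against 41.1%, and AAGATGGC (YY1) in 3 (8.1%) against 3.19%. Apart from both nuclear respiratory factor 1 forms in Uqcrc1, no matches of different motifs overlap in these 5 windows, and matches describe letters, not binding.

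All 4 complex II genes were lower in the combination than in palmitate, and 1 of them passed the test. Sdhc, one of 2 membrane anchors that bind ubiquinone (chr1:171127165-171150603), measured 118 and 119 CPM with palmitate and 107 and 105 CPM with palmitate plus A66. The 2 groups did not overlap, and the log2 fold change was -0.17 ± 0.05 (SE, edgeR adjusted p = 0.0499). Untreated cells had 107 and 118 CPM, so the first untreated library was as low as the combination. Sdhd, the other anchor, had 179 and 178 CPM with palmitate and 164 and 162 CPM with the combination, a difference of -0.13 on the log2 scale (adjusted p = 0.136).

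Sdha measured 566 and 565 CPM untreated, 555 and 542 after A66, 554 and 547 after palmitate, and 523 and 525 after both. The combination libraries were the lowest of the 8, with a log2 fold change of -0.070 against palmitate (adjusted p = 0.431). Sdhb, the iron-sulfur subunit whose protein the study blotted, had 164 and 169 CPM untreated, 172 and 170.2 after A66, 167 and 168 after palmitate, and 159 and 159.8 after both. Its log2 fold change was 0.040 ± 0.041 for A66 (adjusted p = 0.753) and -0.075 ± 0.040 for the combination against palmitate (adjusted p = 0.405). No gene of complex II passed the test for A66 or palmitate alone, the smallest p being that of Sdhc in both (adjusted p = 0.563 and 0.521).

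In complex III, 3 of 9 genes fell in the combination against palmitate, and all 9 were lower by sign with a median of -0.13. Uqcr11, a small accessory subunit (chr10:80402997-80406830), had 77.1 and 82.6 CPM with palmitate and 68.3 and 65.9 CPM with the combination. It had 81.9 and 77.8 CPM with A66 and 74.7 and 81.2 CPM untreated, so the combination was below all other libraries. The log2 fold change was -0.25 ± 0.05 against palmitate (adjusted p = 0.00625) and -0.25 ± 0.05 against A66 (adjusted p = 0.00553).

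Cyc1, the cytochrome c1 heme subunit that hands electrons to cytochrome c (chr15:76343523-76346260), had 182 and 190.2 CPM with palmitate and 165 and 166 CPM with the combination. Its log2 fold change of -0.17 ± 0.04 (adjusted p = 0.0246) means that it fell by 11.03%. Untreated cells had 175 and 182 CPM and A66 cells 175 and 177 CPM, so the combination was again the lowest group. Uqcrc1, a core subunit on the matrix side (chr9:108936633-108949623), went from 212 CPM in both palmitate libraries to 191 and 188 CPM (log2 fold change -0.16 ± 0.04, adjusted p = 0.0439). The other core subunit gene, Uqcrc2, whose protein was blotted, had 263 and 256 CPM with palmitate and 245 and 249.8 CPM with the combination and did not pass. With A66 alone Uqcrc2 had 268 and 249 CPM against 256 and 265 CPM untreated, which overlap.

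Uqcr10, another small accessory subunit (chr11:4701973-4704342), was the complex III gene with the smallest p for A66. It rose from 77.2 and 80.0 CPM untreated to 92.9 and 87.8 CPM, a log2 fold change of 0.20 ± 0.05 (adjusted p = 0.0186) or an increase of 15.2%. In the combination it had 79.2 and 76.9 CPM, which overlaps the untreated libraries and is lower than A66 by -0.21 ± 0.05 (adjusted p = 0.0115). With the length trend of the principal transcripts removed, the A66 value was 0.13 (adjusted p = 0.119) and the decrease from A66 to the combination was -0.17 (adjusted p = 0.0386). Uqcrh had 148 and 145 CPM untreated and 165 and 151 CPM with A66 (log2 fold change 0.11, adjusted p = 0.270). Uqcrq, a supernumerary subunit, had 66.4 CPM in the first untreated library and between 74.7 and 87.0 CPM in the other 7, and its palmitate value of 0.19 (adjusted p = 0.248) did not pass.

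Cycs (chr6:50562563-50566538) had its highest levels in untreated cells, 252 and 253 CPM. A66 cells had 233 and 228 CPM, palmitate cells 242 and 235 CPM, and combination cells 212 and 216 CPM. No 2 groups overlapped, although the palmitate and A66 libraries lay close to each other. Only the step from palmitate to the combination passed the test, at -0.15 ± 0.04 (adjusted p = 0.0327), where it fell by 10.2%. The values for A66 (-0.13 ± 0.04, adjusted p = 0.125) and palmitate (-0.084 ± 0.039, adjusted p = 0.396) did not. The transcript of Cycs is long, and with the principal-transcript length correction the A66 value was -0.12 (adjusted p = 0.109). The call against palmitate is lost in a fit of the 4 libraries of that comparison alone.

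Complex IV gave 1 call in each of the 2 combination comparisons, both Cox8b. Cox8b encodes the subunit 8 form known from heart, skeletal muscle and brown fat (chr7:140898945-140900446). It had 15.0 and 18.6 CPM untreated, 19.2 and 16.0 CPM with A66, 16.2 and 17.5 CPM with palmitate, and 11.8 and 12.7 CPM with the combination. The first 3 groups overlapped and the combination lay below all 6 of their libraries. The log2 fold change was -0.46 ± 0.10 against palmitate (adjusted p = 0.0153), where it fell by 27.1%, and -0.52 ± 0.10 against A66 (adjusted p = 0.0050), where it fell by 30.3%. Cox8a, the ubiquitous form, had 117 and 154 CPM with palmitate and 134 and 139.9 CPM with the combination, and these overlap. Cox8b made up 11.5% and 11.2% of the CPM of both subunit 8 genes in untreated libraries, 12.2% and 10.5% in A66 libraries, 12.2% and 10.2% in palmitate libraries, and 8.15% and 8.33% in those of the combination.

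Cox7a2, the widely expressed form of subunit 7a (chr9:79755361-79759878), rose with A66. It had 78.8 and 89.9 CPM untreated and 96.7 and 98.1 CPM with A66, a log2 fold change of 0.21 ± 0.05 (adjusted p = 0.0354). Palmitate cells had 90.3 and 88.3 CPM and combination cells 85.4 and 87.1 CPM, so both A66 libraries were the highest of the 8. DESeq2 did not call it, nor did scaling by library size only or the 3 length corrections on their own (adjusted p = 0.0763 with principal transcripts). Length correction together with the replicate block kept the call. The length-corrected fold changes were 0.19, 0.14 and 0.15 with the median, longest and principal transcripts. Cox7a2l, a relative that takes part in joining complexes III and IV, had 167 and 175 CPM untreated and 190.0 and 187 CPM with A66 (0.14, adjusted p = 0.0880). Its pseudogene copy Gm6969 held counts equal to 31.5% of those of Cox7a2l, so reads may be divided between them.

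Cox7a1, the muscle and brown fat form of subunit 7a, had the fewest counts of the tested genes, 36 to 103 per library. It had 1.81 and 1.90 CPM untreated, 1.26 and 1.41 CPM with A66, 1.02 and 1.40 CPM with palmitate, and 0.742 and 1.34 CPM with the combination. All 6 treated libraries were below both untreated ones, but neither the A66 value of -0.48 ± 0.25 (adjusted p = 0.426) nor the palmitate value of -0.63 ± 0.27 (adjusted p = 0.338) passed. Cox6a2, the muscle form of subunit 6a, had 5.98 and 5.51 CPM untreated, 5.43 and 6.05 CPM with A66, 7.62 and 6.73 CPM with palmitate, and 8.14 and 6.42 CPM with both. It was the only tested gene besides Cox6a1 with a higher combination than A66 level, at 0.34 ± 0.13 (adjusted p = 0.195), and that difference did not pass. Its palmitate value was 0.32 ± 0.13 (adjusted p = 0.294).

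The remaining alternative forms gave no call. Cox4i1 had 504 and 529 CPM untreated, 575 and 541 CPM with A66, 524 and 504 CPM with palmitate, and 508 and 519 CPM with the combination. Its alternative Cox4i2, an oxygen-responsive form, had at most 0.135 CPM, Cox6b2 at most 0.0412, Cox7b2 at most 0.0201, and Cox8c was at 0, where a count of 0 allows up to 3 counts, or 0.0519 to 0.0706 CPM. Cox6b1 ran between 185 and 207 CPM, Cox6a1 between 126 and 156 CPM, and Cox6c between 126 and 149 CPM. Cox7b, a subunit on the X chromosome, had 131 and 134 CPM with palmitate and 125 and 117 CPM with the combination (-0.14 ± 0.04, adjusted p = 0.106). Cox5b, a zinc-binding subunit, had 104 and 111 CPM with palmitate against 92.0 and 104 CPM untreated (0.13 ± 0.06, adjusted p = 0.319).

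**Figure D4:**
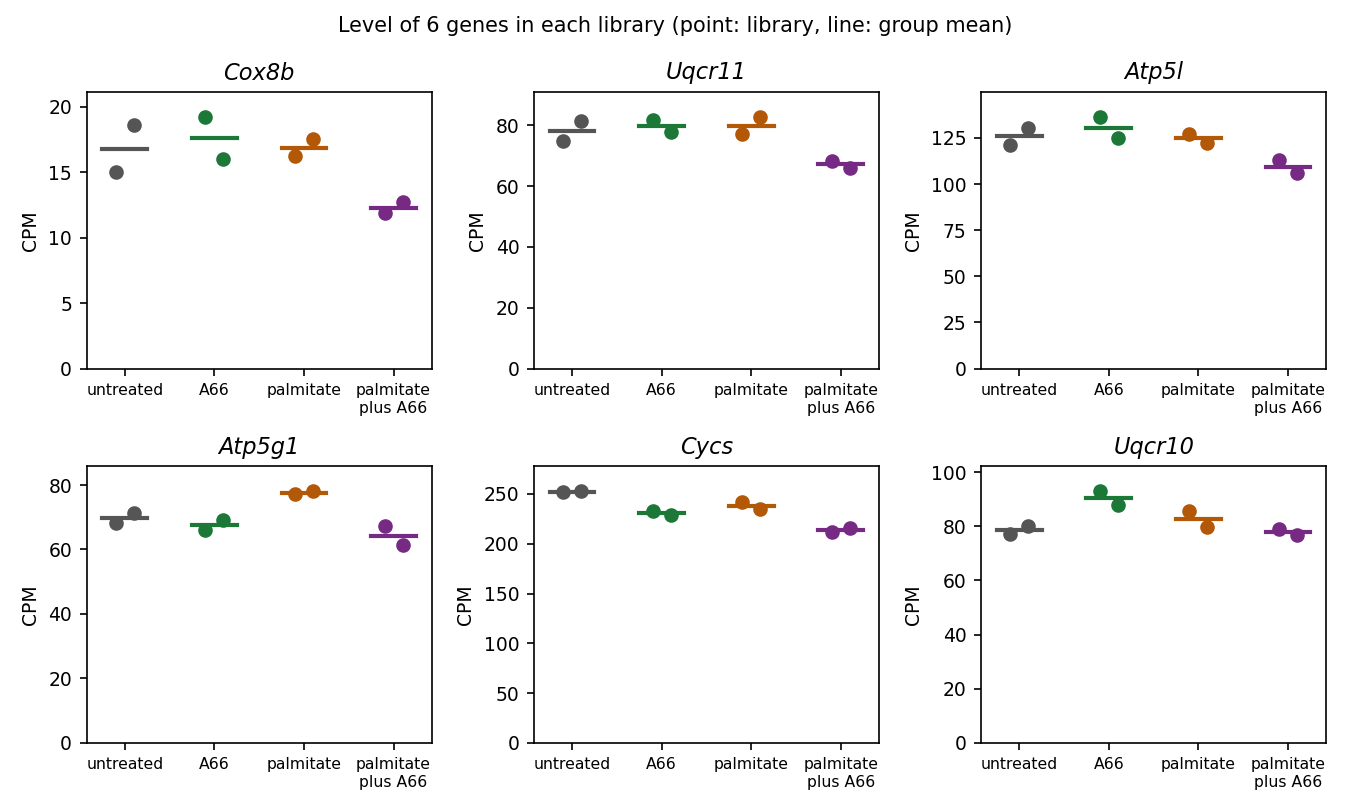
CPM of 6 genes in each library (points) with the mean of each group (lines), on axes that start at 0. Cox8b, Uqcr11, Atp5l and Cycs are lowest in both palmitate plus A66 libraries, Atp5g1 is highest in both palmitate libraries at 77.3 and 78.0 CPM, and Uqcr10 is highest in both A66 libraries.

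Complex V, the largest group with 17 tested genes, was lower throughout in both combination comparisons, with medians of -0.092 against palmitate and -0.11 against A66. The alpha and beta subunits of its catalytic head gave no call. Atp5b had 1709.8 and 1812 CPM untreated, 1802 and 1752 CPM with A66, 1796 and 1776 CPM with palmitate, and 1695 and 1734 CPM with the combination. Atp5a1, the alpha subunit whose protein was blotted, had 945 and 951 CPM with palmitate and 867 and 900.0 CPM with the combination, a log2 fold change of -0.10 ± 0.04 (adjusted p = 0.222). With A66 alone it had 955 and 946 CPM against 944 and 977 CPM untreated, and these overlap.

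Atp5e, the small epsilon subunit of the central stalk (chr2:174461072-174464105), rose with A66 from 30.7 and 36.4 CPM to 45.4 and 37.9 CPM. The first A66 library was well above the other 7, which ranged from 30.7 to 37.9 CPM. The log2 fold change was 0.31 ± 0.08 (adjusted p = 0.0388), and neither DESeq2, the GC correction nor the 3 length corrections on their own called it, while length correction with the replicate block did. The length-corrected fold changes were 0.28, 0.24 and 0.24 with the median, longest and principal transcripts (adjusted p = 0.0764, 0.0630 and 0.0733). In the combination it had 32.7 and 33.8 CPM, lower than A66 by -0.33 ± 0.08 (adjusted p = 0.0173).

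The membrane rotor is built from subunit c, made from 3 genes that yield the same mature protein. Atp5g1 (chr11:96068852-96075670) had 68.2 and 71.4 CPM untreated, 65.96 and 69.2 CPM with A66, 77.3 and 78.0 CPM with palmitate, and 67.3 and 61.3 CPM with the combination. The palmitate libraries were above all the others. The decrease from palmitate to the combination was -0.27 ± 0.05 (adjusted p = 0.00299), and it fell by 17.2%, and the palmitate value against untreated cells was 0.15 ± 0.05 (adjusted p = 0.161). Atp5g2 had 144 and 141 CPM untreated and 154 and 158 CPM with A66 (0.14 ± 0.04, adjusted p = 0.101), and 145 and 148 CPM with palmitate against 142 and 149 CPM with both. Atp5g3 varied between the untreated libraries, 197 and 244 CPM, and had 206 and 207 CPM with the combination. Atp5g1 supplied 16.2% ± 0.749 (SD, n = 2) of the summed CPM of the 3 genes in untreated cells. Its share was 15.0% ± 0.508 after A66, 17.1% ± 0.286 after palmitate and 15.5% ± 1.05 after both.

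Stalk and membrane subunits supplied the other calls. Atp5o, which encodes the oligomycin sensitivity protein joining head and stalk (chr16:91925214-91931687), had 232 and 227 CPM with palmitate and 198 and 201 CPM with the combination. That is a log2 fold change of -0.20 ± 0.04 (adjusted p = 0.00647), and it fell by 13.1%. The combination was below all other libraries, of which the lowest was an A66 library at 212 CPM. Atp5l, subunit g at the membrane (chr9:44912557-44920742), had 127 and 122 CPM with palmitate, 136 and 125 CPM with A66, and 113 and 106 CPM with the combination. It fell by 0.19 on the log2 scale against palmitate (SE 0.05, adjusted p = 0.0408) and by 0.25 against A66 (SE 0.05, adjusted p = 0.00422).

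Atp5k, subunit e, which pairs with subunit g in holding ATP synthase dimers (chr5:108433244-108434448), had 55.0 and 51.4 CPM with A66 and 46.6 and 41.9 CPM with the combination. Its log2 fold change was -0.27 ± 0.06 (adjusted p = 0.00794), and against palmitate it was not called. Atp5j2, subunit f (chr5:145183698-145192062), had 122 and 114 CPM with A66 and 103 and 99.5 CPM with the combination (-0.23 ± 0.05, adjusted p = 0.00821). Untreated cells had 103 and 114 CPM of Atp5j2, so the first untreated library lay next to the combination. Atp5mpl, a small membrane proteolipid, had 34.0 and 38.1 CPM untreated and 38.6 and 40.6 CPM with palmitate (0.13 ± 0.06, adjusted p = 0.401). Atp5s stayed between 12.5 and 14.2 CPM.

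The fold changes were also read against transcript length. For A66 against untreated cells, all genes under 600 nucleotides had a median log2 fold change of 0.054, and the 14 subunit genes in that class had 0.065. Between 600 and 1000 nucleotides the values were 0.044 for all genes and 0.042 for 13 subunit genes, and between 2000 and 4000 nucleotides they were -0.0074 and, for 5 subunit genes, -0.041. For the combination against palmitate the medians of all genes lay between -0.013 and 0.013 in all 5 length classes, while those of the subunit genes were -0.080, -0.084, -0.086 and -0.15 from the shortest class to the longest they reach. Against A66 the shortest class had -0.048 for all genes and -0.17 for the subunit genes.

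Correction for length changed the medians accordingly. With principal transcripts the median of the 45 genes went from 0.036 to -0.0058 for A66, from 0.020 to -0.0085 for palmitate, from -0.087 to -0.078 for the combination against palmitate, and from -0.11 to -0.097 against A66. The number of genes higher with A66 went from 30 to 21. All 9 calls against palmitate and all 7 against A66 were kept under the 3 length corrections, and Sdhc was added to the latter with the longest and principal transcripts. Across the 45 genes, the Spearman correlation of fold change with transcript length was -0.33 for A66 and 0.39 for the combination against A66. Over all genes these values were -0.077 and 0.018. For palmitate it was 0.041 across the 45 and -0.069 over all genes, and for the combination against palmitate -0.076 and 0.016. The comparisons share libraries and genes are not independent, so the values are descriptions.

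**Figure D5:**
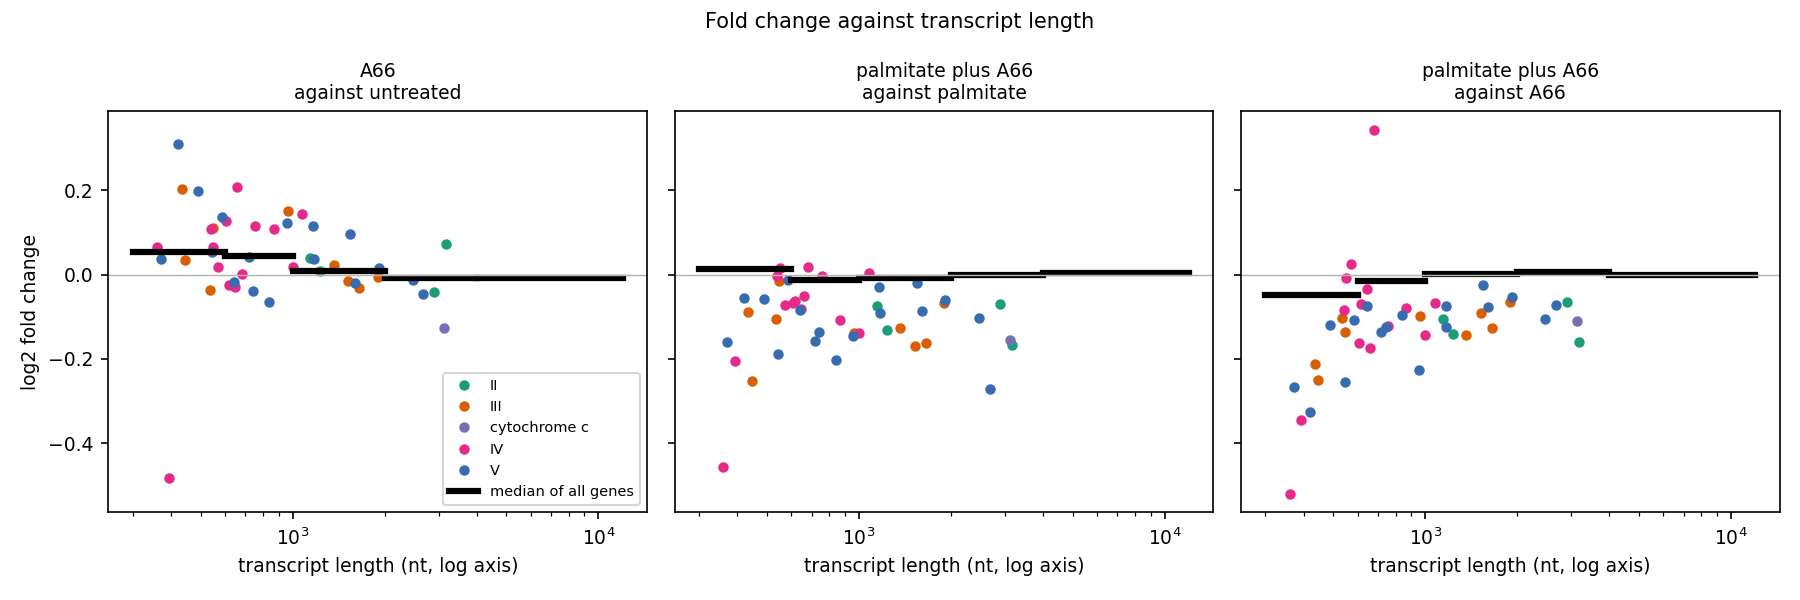
Log2 fold change of each tested gene (points, coloured by complex) against transcript length in nucleotides (log axis) in 3 comparisons, with black lines for the median of all genes in 5 length classes. With A66 alone the points scatter around a line that lies above 0 for short transcripts, and in the combination against palmitate they lie mostly below a line that stays between -0.013 and 0.013.

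The difference between the A66 effect with and without palmitate was tested as an interaction over all 8 libraries. None of the 45 genes passed, and 1 of all 14587 genes did (0.00686%). At an unadjusted p under 0.05, 24 of the 45 were negative and 0 positive, beside 4.35% of all genes that were negative, and DESeq2 called 0 with 19 adjusted p-values not given. The median interaction was -0.14 against 0.0021 for all genes, and 43 of 45 were negative, beside 49.4% of all genes. The smallest p-values belonged to Uqcr10 (-0.29 ± 0.07, adjusted p = 0.274), Uqcr11 (-0.28 ± 0.07, adjusted p = 0.282) and Atp5j2 (-0.27 ± 0.07, adjusted p = 0.287). Without the first untreated library the median was -0.080, and without the second it was -0.18. Removal of the principal-transcript length trend gave a median of -0.10. Without a filter on low counts the same 8 libraries gave 9 calls, beside 91 of all 23120 genes then tested, namely Atp5e, Atp5j2, Atp5l, Cox7a2, Cox8b, Sdhc, Uqcr10, Uqcr11 and Uqcrq. The equally short cytosolic ribosomal protein genes had a median interaction of -0.14 with 79 of 80 negative and 43 at an unadjusted p under 0.05. Genes named as complex I subunits had -0.15 with 35 of 36 negative, and 20 negative and 1 positive at that level.

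Genes that assemble these complexes gave no call. Of 40 assembly factors, with the ATP synthase inhibitor Atpif1 among them, 39 were tested, and 0 were called in any of the 5 comparisons by edgeR. Beside the calls of 0, 7 of the 39 had an unadjusted p under 0.05 for the combination against palmitate and 3 against A66, all lower, where 7.61% and 7.19% of all genes were lower at that level. The 3 against A66 are thus a share near the background. Their median log2 fold change was -0.0077 for A66, 0.015 for palmitate, -0.066 for the combination against palmitate with 31 lower, and -0.039 against A66 with 27 lower. The smallest p in both combination comparisons was that of Pet100, a complex IV assembly factor, at -0.32 ± 0.10 against palmitate (adjusted p = 0.0783) and -0.35 ± 0.10 against A66 (adjusted p = 0.0562).

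Complex I, which feeds electrons from NADH into the same ubiquinone pool, also had calls. Its subunits were listed by name only, as symbols beginning with Ndufa, Ndufb, Ndufc, Ndufs or Ndufv and a number. The list was not checked gene by gene and can hold genes outside complex I. Of the 36 tested 5 were lower and 0 higher against palmitate, with a median of -0.12, beside 1.84% of all genes called lower. Against A66 4 were lower, with a median of -0.13, beside 1.27%. With A66 alone 1 of the 36 was higher, beside 1.07% of all genes, which is a share near the background. The 6 genes of complexes III to V that the mitochondrial genome encodes had medians of 0.054 against palmitate and 0.045 against A66, of opposite sign to the nuclear genes, with 0 calls by edgeR and 2 at an unadjusted p under 0.05, both higher, in each, where 6.79% and 7.36% of all genes were higher at that level. Genes of cytosolic ribosomal proteins, which are about as short as the subunit genes, were called higher with A66 in 41 of 80 tested (median 0.17), beside 1.07% of all genes, a sign that rests on the labels like the others. In the combination against palmitate 1 of these 80 was called higher and 0 lower, with a median of 0.019, a share near the background of 142 of 14587 genes called higher. Against A66 their median was -0.043, with 69 of 80 lower by sign and 38 separated downward, beside 49.8% and 23.4% of all genes. The 1 of 80 called lower there is a share near the background of 1.27%.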

How the data were processed

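The authors aligned stranded poly(A) reads to GRCm38 with TopHat2 2.0.11, counted them with HTSeq and deposited raw counts per Ensembl gene, 1 column for each of 8 libraries. HTSeq's version, strand setting and annotation are not given in the sources used here. The 6 deposited columns of the authors' DESeq2 comparison (mean, fold change, error, statistic, p and adjusted p) were not used. Symbols, coordinates and transcript lengths came from GENCODE M21, which named 42462 of 43629 genes.

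edgeR 4.0.16 quasi-likelihood tests (TMM, filterByExpr with a minimum count of 10, Benjamini-Hochberg adjustment over all genes, threshold 0.05) compared A66 with untreated cells in their 4 libraries. The other comparisons and the interaction used all 8. Values per kilobase use the median length of the principal transcripts. Floors (3 counts) cover counting error only, while errors printed after ± are edgeR standard errors or SDs between libraries. Alternatives were RLE and library-size scaling, other filters, DESeq2 1.42.0, the other set of libraries, a replicate block, length and GC corrections (loess span 0.4) and leaving out each library. The fits were tested on simulated counts with known changes, where false calls exceeded the threshold in the A66 fit of 4 libraries and were near it in the others. Copies were sought with BLAST 2.17.0 at 97% identity over 100 bases. The members and lists were chosen with earlier results of these data known. Named with values were genes called in any comparison, the highest per length and the 2 smallest p in each complex, blotted subunits and alternative isoforms.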

Additional observations from a re-analysis of the deposited data

How the results depend on the processing

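Which untreated library was used and whether length was corrected changed the A66 and palmitate results. For A66, calls went from 3 to 5 without a low-count filter, 1 with DESeq2, 1 with the correction on median transcript length and 0 with those on the longest or principal transcripts, and the median log2 fold change became -0.0079 and -0.0058 under the last 2. Leaving out single libraries gave 0 to 15 calls and medians from -0.025 to 0.10. For palmitate, calls went from 0 to 1 without a filter, and the median was -0.013 with the longest and -0.0085 with the principal transcripts. Leaving out libraries gave medians from -0.028 to 0.081. The combination against palmitate kept a negative median and at least 8 calls in all settings that used all its libraries. When one was left out it gave fewer calls, with medians from -0.094 to -0.085. Against A66 it gave 11 calls without a filter (664 of 23120 genes in all) and 14 when only its 4 libraries were fitted (689 of 14144, against 398 of 14587 with all 8). When one was left out the calls were no more numerous than with all 8, and the medians ran from -0.13 to -0.095. The interaction gave 9 calls without a filter, and medians of -0.098 with the longest and -0.10 with the principal transcripts. Its medians ran from -0.18 to -0.080 when a library was left out. Of single genes, the A66 value of Uqcrc2 ranged from -0.060 to 0.050 and that of Atp5a1 from -0.037 to 0.016 over the libraries left out. The causes of these changes were not tested, except that a left-out library means fewer samples. Where a group keeps 1 library, it is assumed to vary like the others.

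Replicate numbers are shared by the groups, but nothing ties equal numbers to one culture or day. Across 8956 genes, deviations of same-numbered libraries correlated between -0.15 and 0.15. With the replicate block the counts of members called were 3, 0, 9, 7 and 0, as without it, and 4 for A66 with block and length correction together. The principal-transcript correction was chosen after the data had been seen. Among the 45 tested genes the fewest counts were those of Cox7a1, 36 to 103 a library.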
